A study of Mus musculus with 12 samples.

Results

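The genes described here are 10 markers of hepatocyte zonation, chosen by name as established markers of the zones of the liver lobule. The rule uses no measured value, but the members and the other gene lists were chosen with earlier results of these data known. The 5 pericentral markers are Glul, Cyp2e1, Cyp1a2, Oat and Axin2, and the 5 periportal markers are Cyp2f2, Sds, Hal, Hsd17b13 and Pigr. They are 10 of the 11968 genes that were tested, and of 48526 genes with a row in the larger deposited table. Livers were taken from young adult female and male C57BL/6J mice, an inbred strain, and the diet, chow or chow containing simvastatin, was given for 4 weeks. Simvastatin blocks HMG-CoA reductase and with it cholesterol synthesis. The 4 groups were female chow, female statin, male chow and male statin, with 3 livers each from different mice, and no group carried a transgene or other allele. The simvastatin dose was 0.1 g per kg, which the sample labels refer to body weight and the study's methods to food weight. The time of day of tissue collection and the feeding state are not given in the sources used here.

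Blood enters the liver lobule at the portal tract and leaves at the central vein, and hepatocytes along this path divide their tasks. Wnt ligands and R-spondin made by the endothelium of the central vein switch on β-catenin in the nearest hepatocytes, where glutamine is made from ammonia and many cytochrome P450 enzymes are held. Hepatocytes near the portal tract receive the most oxygen and nutrients, and amino acid breakdown, urea synthesis and glucose production are strongest there. The data are from whole liver, so a level here does not locate a transcript in the lobule. Fewer cells of one zone and less RNA per cell cannot be told apart.

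The 250 bases before the RefSeq transcription start were read for 9 of the 10 genes, from RefSeq sequence of the GRCm38.p6 build, since the pericentral program is known to be driven through TCF/LEF sites. Sds had no entry. The letters CTTTGAT or CTTTGAA, a core of TCF/LEF sites, were searched on both strands, as were the TATA box letters TATAAA. These occur in 7.48% and 12.4% of 32851 mouse promoter windows of this length. Cyp2e1, Cyp1a2 and Hal each held 1 TCF/LEF match and 1 TATA match, and the other 6 windows held neither. Shown are the 3 windows with matches, and those of Glul and Cyp2f2 as a marker of each zone without them, and capitals mark the TCF/LEF and TATA letters on either strand. The window of Cyp2e1 is chr7:140763569-140763818 on the plus strand, that of Cyp1a2 chr9:57683656-57683905 on the minus strand, and that of Hal chr10:93488518-93488767 on the plus strand. Glul is shown from chr1:153899679-153899928 and Cyp2f2 from chr7:27119705-27119954, both on the plus strand.
Cyp2e1: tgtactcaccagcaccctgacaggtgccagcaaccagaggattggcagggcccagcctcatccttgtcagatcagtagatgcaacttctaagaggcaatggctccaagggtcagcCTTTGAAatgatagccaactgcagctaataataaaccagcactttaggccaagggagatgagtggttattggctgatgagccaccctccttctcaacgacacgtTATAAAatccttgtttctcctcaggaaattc
Cyp1a2: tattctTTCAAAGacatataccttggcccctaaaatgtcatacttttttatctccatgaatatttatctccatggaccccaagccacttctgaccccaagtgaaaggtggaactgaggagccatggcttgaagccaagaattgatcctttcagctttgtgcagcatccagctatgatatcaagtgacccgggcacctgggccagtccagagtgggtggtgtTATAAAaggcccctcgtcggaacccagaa
Hal: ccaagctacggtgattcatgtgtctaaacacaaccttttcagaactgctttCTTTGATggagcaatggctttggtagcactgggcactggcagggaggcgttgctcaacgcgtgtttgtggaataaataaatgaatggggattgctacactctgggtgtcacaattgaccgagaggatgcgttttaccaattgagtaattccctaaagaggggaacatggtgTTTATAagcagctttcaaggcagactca
Glul: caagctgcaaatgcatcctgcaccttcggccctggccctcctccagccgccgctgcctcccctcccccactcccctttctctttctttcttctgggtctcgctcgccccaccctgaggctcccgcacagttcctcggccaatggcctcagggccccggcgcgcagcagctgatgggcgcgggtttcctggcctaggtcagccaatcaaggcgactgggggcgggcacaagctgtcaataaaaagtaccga
Cyp2f2: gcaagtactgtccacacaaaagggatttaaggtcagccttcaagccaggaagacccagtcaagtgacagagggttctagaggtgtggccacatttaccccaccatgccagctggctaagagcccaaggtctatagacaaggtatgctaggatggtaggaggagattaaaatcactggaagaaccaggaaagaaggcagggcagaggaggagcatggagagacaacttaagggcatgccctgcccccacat

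The TCF/LEF letters of Cyp2e1 began at position -135 from the start, those of Hal at -199, and those of Cyp1a2, on the other strand, at -244. A match is a description of letters and not of a bound site, and one of the 3 matches lay at a periportal gene. The xenobiotic response letters TNGCGTG, read by the aryl hydrocarbon receptor and found in 4.10% of all windows, were in none of the 9, and the CCAAT box letters, found in 33.8%, were in those of Glul, Cyp2e1, Oat and Hal.

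Every member was above 1 CPM (the count of a gene scaled to the total of its library) in all 12 livers. Library totals were between 46066381 and 60419223 counts, so 3 counts, taken as the floor, were worth between 0.0497 and 0.0651 CPM, a limit for counting error only. The member with the fewest reads was Axin2, with 275 to 539 counts a liver. Levels below are CPM scaled by TMM, a trimmed mean of ratios between libraries, with the 3 livers of a group named in the order of the labels. All 7 hepatocyte markers with a row were in the count table, and their summed level was between 81566 and 153883 CPM. Cholangiocyte markers summed to between 18.2 and 50.8 CPM and neutrophil markers to between 0.714 and 5.06 CPM, and none of the listed cell type markers was at 0 in all livers.

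Per kb of exon, which allows levels of different genes to be compared, Cyp2e1 was the highest member with a mean of 2959 CPM per kb over the 12 livers and rank 21 among 11949 genes with a length. Cyp2f2 followed with 370.3 CPM per kb, Oat with 304 and Glul with 293. Pigr had 285, Cyp1a2 191, Sds 187, Hsd17b13 149.8 and Hal 81.2 CPM per kb. Axin2 stood far below the rest with 1.34 CPM per kb and rank 8979. The order in between differed by group. Cyp2f2 came next after Cyp2e1 in both male groups, at 523 CPM per kb on chow, but in female chow it was at 222 CPM per kb, below Glul (282), Sds (265), Oat (247) and Pigr (237). The range over the 12 livers, as highest over lowest level, was widest for Cyp2f2 (3.68), Cyp1a2 (3.44), Cyp2e1 (3.22) and Sds (3.15), and narrowest for Glul (1.43).

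**Figure D1:**
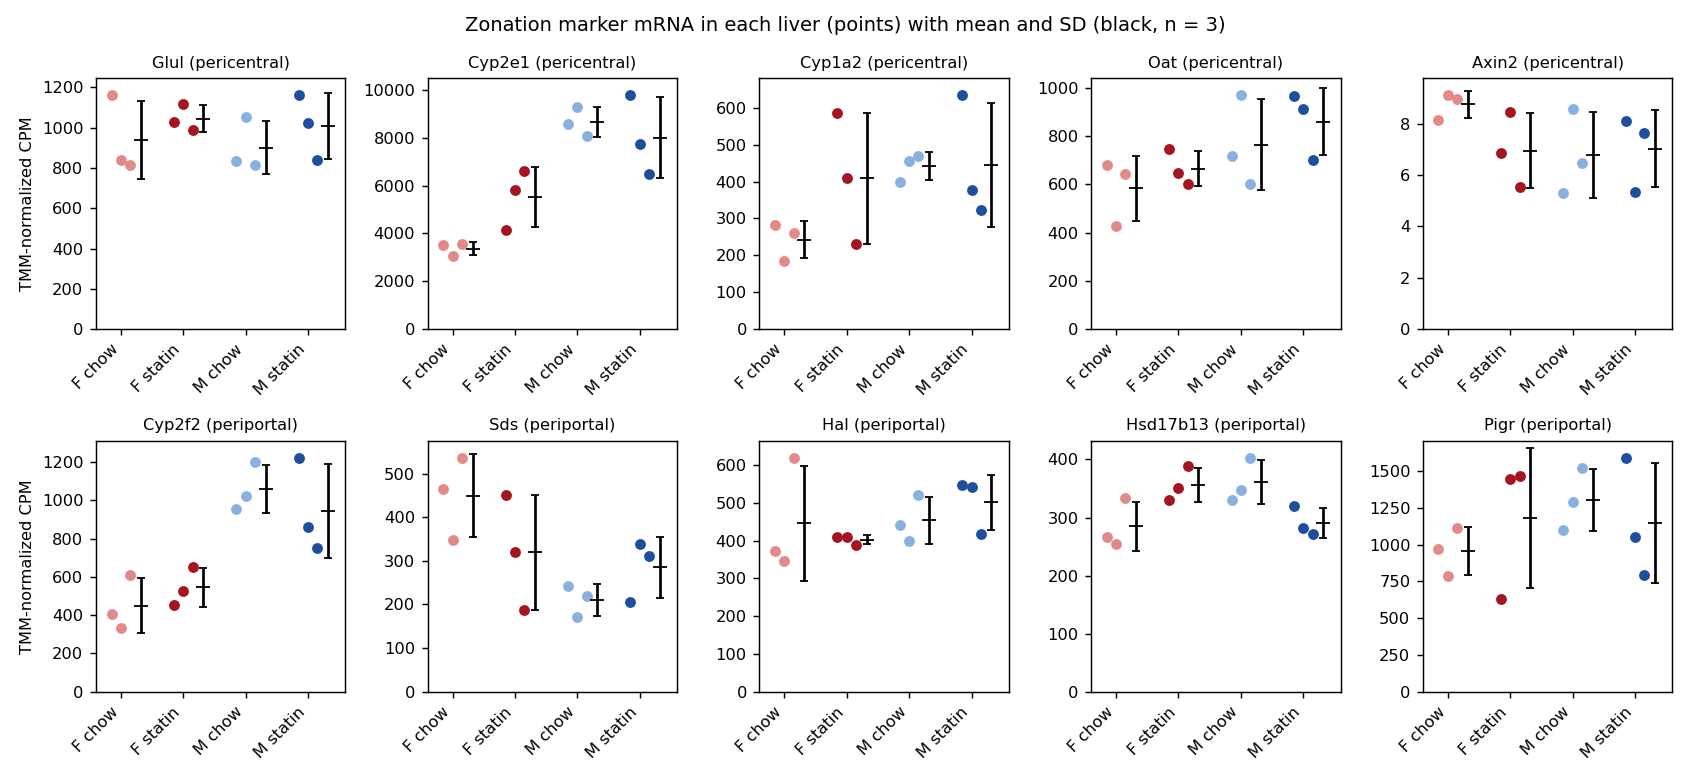
Level of each of the 10 markers in each liver (points, TMM-normalized CPM, linear axis from 0), with the mean and SD of 3 livers in black, for female (F) and male (M) mice on chow or statin. Cyp2e1 and Cyp2f2 were lower in all female chow livers than in all male chow livers, and Sds was higher, while Glul lay between 812 and 1163 CPM in all groups.

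Glul encodes glutamine synthetase, which captures ammonia in the hepatocytes next to the central vein, and lies at chr1:153899944-153909723 on the plus strand (GRCm38). It was measured at 1162, 838 and 812 CPM in female chow and at 1028, 1118 and 989 CPM in female statin. Male chow livers had 837, 1052 and 813 CPM and male statin livers 1163, 1023 and 838 CPM. The 4 groups overlapped, with means of 938 ± 195, 1045 ± 66.5, 900.5 ± 132 and 1008 ± 163 CPM in this order (SD, n = 3).

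Cyp2e1 (chr7:140763739-140774987, plus strand) encodes the P450 enzyme that oxidizes ethanol and acetaminophen. It was at 3507, 3036 and 3553 CPM in female chow and at 4152, 5824 and 6625 CPM in female statin. In male chow it was at 8566, 9296 and 8062 CPM and in male statin at 9791, 7755 and 6463 CPM. All female chow livers lay below all female statin livers and below all male livers. The means were 3365 ± 286, 5534 ± 1262, 8642 ± 620.3 and 8003 ± 1678 CPM (SD, n = 3), so the female statin mean was 1.64 times that on chow and 0.691 times that of male statin.

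Cyp1a2 (chr9:57676937-57683703, minus strand) encodes a P450 enzyme that metabolizes caffeine and is induced through the aryl hydrocarbon receptor. Female chow livers had 281, 185 and 262 CPM and female statin livers 587, 409 and 229 CPM. Male chow livers had 399, 457 and 470.5 CPM and male statin livers 635, 376 and 322 CPM. The third female statin liver was inside the range of female chow, while the first was the highest of all female livers. Both statin groups were spread widely, with SDs of 179 CPM in females and 167 CPM in males against 50.9 and 38.0 CPM on chow.

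Oat encodes ornithine aminotransferase, a mitochondrial enzyme that links ornithine with glutamate, and lies at chr7:132557478-132576398 on the minus strand. It was at 681, 427 and 642 CPM in female chow and at 745, 648 and 602 CPM in female statin. The male levels were 716, 972 and 604 CPM on chow and 965, 911 and 703 CPM on statin. Chow and statin livers overlapped in each sex, as did female and male livers on chow. Oat overlaps Fgfr2 on the same strand in the annotation, so reads of their shared stretch could belong to either gene.

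Axin2, a scaffold of the β-catenin destruction complex that is itself a Wnt target, lies at chr11:108920349-108950783 on the plus strand. It was at 8.16, 9.12 and 8.96 CPM in female chow and at 6.87, 8.44 and 5.52 CPM in female statin. In male chow it was at 5.28, 8.58 and 6.48 CPM and in male statin at 8.10, 5.32 and 7.65 CPM. Female chow was the tightest group, at 8.75 ± 0.518 CPM (SD, n = 3), and the second female statin and second male chow livers lay inside its range.

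Cyp2f2 encodes a P450 enzyme that oxidizes naphthalene and lies at chr7:27119909-27133660 on the plus strand. It was at 406, 332 and 612 CPM in female chow and at 455, 527 and 654 CPM in female statin. Male chow livers had 956, 1024 and 1199 CPM and male statin livers 1224, 859 and 752 CPM. Every female liver was below every male liver. The means were 450.0 ± 145 and 545 ± 101 CPM in females and 1060 ± 125 and 945 ± 247 CPM in males (SD, n = 3), which put females at 0.425 times the male mean on chow and at 0.577 times on statin.

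Sds encodes serine dehydratase, which turns serine into pyruvate for gluconeogenesis, and lies at chr5:120476526-120483932 on the plus strand. It was at 465, 348 and 537 CPM in female chow and at 450.4, 319.9 and 188 CPM in female statin. The male levels were 241, 170.3 and 220.2 CPM on chow and 206, 339 and 311 CPM on statin. All female chow livers were above all male livers, and the female statin livers covered most of the span of the other groups. The female mean was 2.14 times the male mean on chow and 1.12 times on statin.

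Hal encodes histidine ammonia-lyase, the first enzyme of histidine breakdown, and lies at chr10:93488768-93519304 on the plus strand. It was at 371, 346 and 620 CPM in female chow and at 409.8, 409 and 389 CPM in female statin. In male chow it was at 441, 399 and 521 CPM and in male statin at 546, 541 and 416 CPM. The third female chow liver was the highest of the 12, and the 3 female statin livers lay closest together, at 403 ± 11.8 CPM (SD, n = 3).

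Hsd17b13 encodes a lipid droplet protein with retinol dehydrogenase activity and lies at chr5:103955440-103977410 on the minus strand. It was at 267, 255 and 333 CPM in female chow and at 329, 351 and 388 CPM in female statin. Male chow livers had 331, 347 and 403 CPM and male statin livers 320.4, 283 and 271 CPM. In males every statin liver was below every chow liver, and in females the third chow liver was above the first statin liver. The ratio of the statin mean to the chow mean was 1.25 in females and 0.808 in males.

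Pigr encodes the receptor that carries polymeric immunoglobulins into bile and lies at chr1:130826684-130852249 on the plus strand. It was at 972, 786 and 1110.1 CPM in female chow and at 630.0, 1449 and 1466 CPM in female statin. The male levels were 1099, 1293 and 1520.0 CPM on chow and 1592, 1054 and 797 CPM on statin. The female statin group held a liver below all of female chow and a pair above it. In the annotation Glul, Axin2, Cyp2f2 and Sds overlap genes on the other strand, and how the counting treated strand is not given in the sources used here, so reads of such stretches cannot be told apart.

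The first comparison asked which of these genes differed between statin and chow in females. Cyp2e1 was the only member whose groups did not overlap, and its level was higher by 0.72 ± 0.20 on the log2 scale (SE), with an unadjusted p of 0.00374 and an adjusted p of 0.211 in edgeR. No member was called: 0 of 10 had an adjusted p under 0.05 in edgeR, against 0.100% of all 11968 genes (0.0836% higher and 0.0167% lower). DESeq2 called 1 member, Cyp2e1, with 0.71 on the log2 scale and an adjusted p of 0.0188, against 2.26% of all genes (1.32% higher and 0.936% lower), and limma called 0, against 0.109%. At an unadjusted p under 0.05 edgeR gave 3 of 10 members, all higher with statin, against 10.5% of all genes (5.93% higher and 4.56% lower). Without the second female chow liver, without the second female statin liver or with the length offset, 1 of 10 remained at this level, Cyp2e1. The length offset takes out differences between livers that follow the exon length of the genes. Over all 11968 genes these runs gave 856, 1845 and 1381 at this level. Groups that did not overlap were found for 1 of 10 members and for 12% of all genes (6.03% higher and 5.97% lower).

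The other members at an unadjusted p under 0.05 in females were Cyp1a2, at 0.75 ± 0.32 (unadjusted p = 0.0369, edgeR adjusted p = 0.432), and the periportal Hsd17b13, at 0.32 ± 0.14 (unadjusted p = 0.0447, edgeR adjusted p = 0.460). The log2 differences of the remaining pericentral markers were 0.16 ± 0.18 for Glul, 0.19 ± 0.22 for Oat and -0.33 ± 0.22 for Axin2. Those of the remaining periportal markers were 0.28 ± 0.24 for Cyp2f2, 0.31 ± 0.32 for Pigr, -0.15 ± 0.21 for Hal and -0.49 ± 0.29 for Sds. The sign was positive for 4 of 5 pericentral and 3 of 5 periportal members. The median log2 difference was 0.19 over the pericentral and 0.28 over the periportal members, beside 0.01 over all genes tested. Of the 10 differences in females, 8 moved by over 1.5 times or changed sign when a single liver was left out, and those of Cyp2e1 and Hsd17b13 did not. That of Cyp1a2 was 0.41 without the first female statin liver. That of Sds was -0.81 without the first and -0.21 without the third female statin liver. Leaving out the second female chow liver gave 0.014 for Oat and 0.10 for Cyp2f2, and leaving out the third gave 0.17 for Hal, 0.57 for Cyp2f2 and 0.070 for Glul. Without the first female chow liver Glul had 0.35 and Oat 0.32. Pigr had 0.61 without the first and 0.13 without the second female statin liver, and Axin2 had -0.18 without the third.

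In males Hsd17b13 was the member whose statin livers all lay below the chow livers, and no member was called. The log2 difference of Cyp2e1 was -0.11 ± 0.20, that of Cyp1a2 0.01 ± 0.32, that of Glul 0.16 ± 0.18, that of Oat 0.17 ± 0.22 and that of Axin2 0.05 ± 0.22. Among periportal markers Sds had 0.44 ± 0.29, Hal 0.14 ± 0.21, Cyp2f2 -0.17 ± 0.24, Pigr -0.18 ± 0.32 and Hsd17b13 -0.31 ± 0.14. The unadjusted p of Hsd17b13 was 0.0534 and its adjusted p 1.00 in edgeR. In edgeR, DESeq2 and limma alike 0 of 10 were called (against 0.00% of all genes in edgeR and limma and 0.0334% in DESeq2, 0.0167% in each direction), and 0 of 10 had an unadjusted p under 0.05 in edgeR, against 1.96% of all genes (0.844% higher and 1.11% lower). Hsd17b13 passed an unadjusted p under 0.05 in DESeq2, in limma, in edgeR on the males alone and in edgeR on genes averaging 10 CPM or more. It also passed in edgeR without the third female chow, the third female statin, the first male chow or the first male statin liver. Each of these runs had 1 of 10 members at this level. Over all 11968 genes such a p was found for 306 in DESeq2, 225 in limma and 360 on the males alone. It was found for 133 of 7638 genes averaging 10 CPM or more. Without the single livers, in the order named, it was found for 218, 307, 233 and 703 genes. Leaving out single livers moved the differences of 8 of 10 members by over 1.5 times or changed their sign. Groups did not overlap for 1 of 10 members and for 7.95% of all genes (3.64% higher and 4.30% lower). The median was 0.05 over the pericentral and -0.17 over the periportal members, beside 0.00 over all genes.

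**Figure D2:**
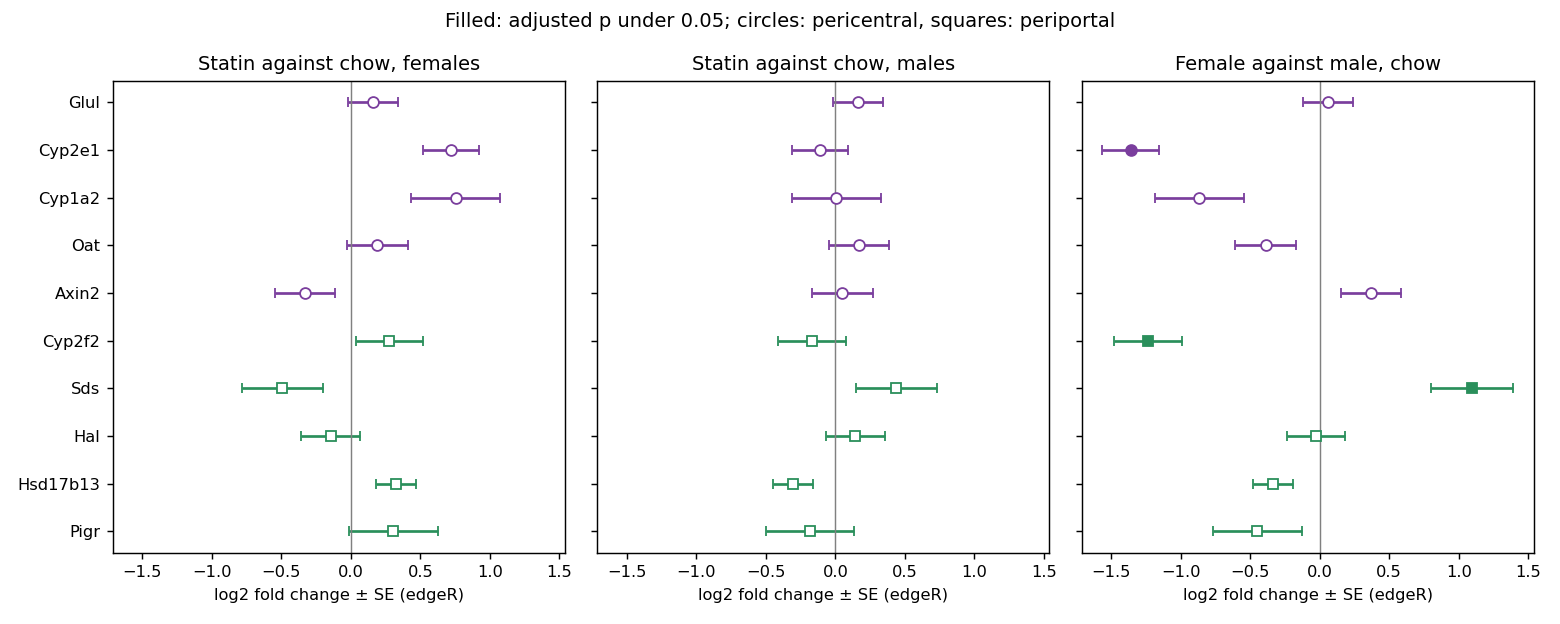
Log2 fold change with its SE (edgeR) of each marker for statin against chow in females, statin against chow in males and female against male on chow; circles are pericentral and squares periportal genes, and filled symbols have an adjusted p under 0.05. The filled symbols are Cyp2e1 at -1.36, Cyp2f2 at -1.24 and Sds at 1.09 in the comparison of the sexes.

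The difference between the sexes in the statin response was tested as an interaction, female minus male. It was 0.83 ± 0.28 on the log2 scale for Cyp2e1 (unadjusted p = 0.0125, edgeR adjusted p = 0.438) and 0.63 ± 0.20 for Hsd17b13 (unadjusted p = 0.00916, edgeR adjusted p = 0.405). For Sds it was -0.93 ± 0.41 (unadjusted p = 0.0442, edgeR adjusted p = 0.606), with the female mean lower and the male mean higher on statin. Cyp1a2 had 0.74 ± 0.45, Pigr 0.49 ± 0.45 and Cyp2f2 0.44 ± 0.34, while Axin2 had -0.38 ± 0.31 and Hal -0.29 ± 0.30. Glul, at -0.01 ± 0.25, and Oat, at 0.02 ± 0.31, were the members nearest to 0. No member was called by edgeR, DESeq2 or limma (0 of 10, against 0.00% of all genes in edgeR and limma and 1.02% in DESeq2, 0.644% higher and 0.376% lower), and 3 of 10 had an unadjusted p under 0.05 in edgeR, against 8.01% of all genes (4.62% higher and 3.39% lower). Without single livers 7 of 10 moved by over 1.5 times or changed sign.

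The comparison of female with male livers on chow gave the largest differences of the 4 comparisons. Cyp2e1 was lower in females, at -1.36 ± 0.20 on the log2 scale (edgeR adjusted p = 0.00139), with a female mean of 0.389 times the male mean. Cyp2f2 was lower too, at -1.24 ± 0.25 (edgeR adjusted p = 0.00796). Sds was higher in females by 1.09 ± 0.30 (edgeR adjusted p = 0.0348). Thus 3 of 10 members were called by edgeR, 1 higher and 2 lower in females, against 10.4% of all genes (5.96% higher and 4.49% lower). Each zone held a marker that was lower in females, and the periportal zone held markers that differed in opposite directions.

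The call of Sds was lost with the total count as the only scaling (edgeR adjusted p = 0.0512), with the replicate number as a block (edgeR adjusted p = 0.0669) and when any 1 of the 6 chow livers was left out, with differences of 0.94 to 1.24 and edgeR adjusted p values of 0.0509 to 0.126. Cyp2e1 and Cyp2f2 kept their calls in every alternative run, with edgeR adjusted p values of at most 0.00869 and 0.0361 when single livers were left out. Cyp1a2 had -0.87 ± 0.32 (edgeR adjusted p = 0.111), with every female chow liver below every male chow liver, and it was called lower by DESeq2 (adjusted p = 0.0457, where DESeq2 called 16.3% of all genes, 8.99% higher and 7.27% lower), by edgeR on the chow livers alone (adjusted p = 0.00752), by edgeR without a filter on low counts (adjusted p = 0.0264) and without the third female statin liver (edgeR adjusted p = 0.0467).

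Hsd17b13 had -0.34 ± 0.14 (unadjusted p = 0.0357, edgeR adjusted p = 0.163), Oat -0.39 ± 0.22, Pigr -0.45 ± 0.32 and Axin2 0.37 ± 0.22. Glul, at 0.06 ± 0.18, and Hal, at -0.03 ± 0.21, lay near 0 with overlapping groups. Without single livers 4 of 10 differences moved by over 1.5 times or changed sign, those of Glul, Hal, Oat and Axin2. Oat had -0.18 without the second male chow liver and -0.21 without the second female chow liver, and Axin2 had 0.22 without the first and 0.57 without the second male chow liver. At an unadjusted p under 0.05 edgeR gave 5 of 10 members, 1 higher and 4 lower in females, against 24.9% of all genes (13.3% higher and 11.6% lower). Without the second female chow liver it gave 3 of 10 members and 2414 of 11968 genes. The chow groups of 4 of 10 members did not overlap, 1 higher and 3 lower in females, against 37.7% of all genes (18.5% higher and 19.1% lower).

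Some markers of nonparenchymal cells were higher in females on chow, where edgeR called 10.4% of all genes (5.96% higher and 4.49% lower). Of 8 Kupffer cell markers edgeR called 3 higher in females (Clec4f by 0.93, Vsig4 by 1.00 and Cd68 by 0.80 on the log2 scale), and the summed level of the list was 521 to 648 CPM in female chow and 289 to 465 CPM in male chow. Of 8 stellate and fibroblast markers Dcn was higher by 0.80 and Lrat by 0.67, with a sum of 375 to 448 CPM in females and 255 to 289.7 CPM in males. Of 8 endothelial markers Clec4g was higher by 0.67, with sums of 282 to 290.4 CPM and 187 to 251 CPM. Of 7 hepatocyte markers tested Apoa1 was lower, at -0.81 (not called without the first or the third male chow liver), of 5 red blood cell markers tested Alas2 was lower, at -2.28, while the other 4 had positive values, and no cholangiocyte or lymphocyte marker that was tested was called. Without single livers edgeR called 2 to 6 Kupffer, 1 to 4 stellate and 1 to 2 endothelial markers higher. It called 6 Kupffer markers higher without the second male chow liver, where it called 795 of 11968 genes in all. Without the second female statin liver it called 4 stellate and 2 endothelial markers higher. In that run it called 1586 genes in all, beside 1250 with all livers. The part of these cells in the zonation differences was not tested.

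A mean of log2(CPM + 1) was taken over the 5 markers of each zone in every liver, as a description with no test. The pericentral mean was 8.38 ± 0.18 in female livers on chow and 8.67 ± 0.16 on statin, and 8.83 ± 0.19 and 8.87 ± 0.27 in male livers (SD, n = 3). The periportal mean was 8.87 ± 0.33, 8.91 ± 0.10, 9.08 ± 0.15 and 9.05 ± 0.18 in the same order. The pericentral minus the periportal mean was -0.27, -0.40 and -0.79 in female chow and -0.05, -0.22 and -0.44 in female statin. It was -0.31, 0.08 and -0.52 in male chow and -0.03, -0.29 and -0.20 in male statin. All 4 groups overlapped on this difference, with means of -0.49 ± 0.27, -0.24 ± 0.20, -0.25 ± 0.30 and -0.17 ± 0.13 (SD, n = 3).

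**Figure D3:**
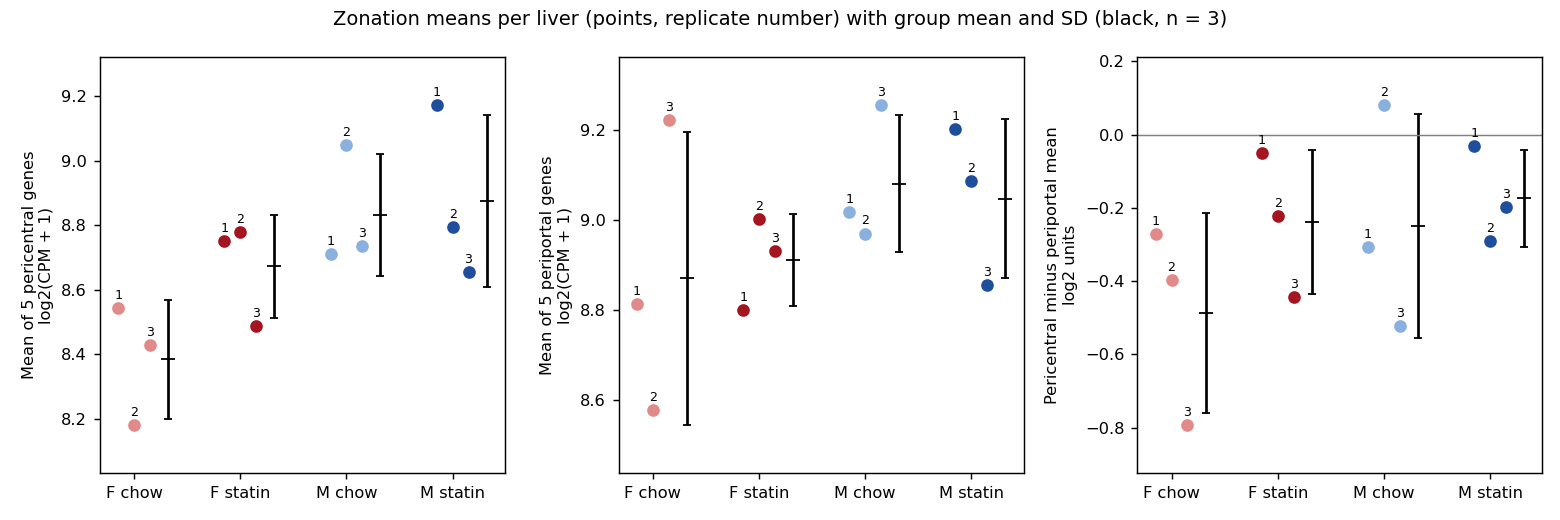
Mean log2(CPM + 1) of the 5 pericentral markers, of the 5 periportal markers, and their difference, in each liver (points with replicate numbers) and as mean and SD of 3 livers in black. The third female chow liver has the highest periportal mean of its group and the lowest difference of all, at -0.79.

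The third female chow liver had the highest level of its group for all 5 periportal markers. The third female statin liver had the highest Cyp2e1, Cyp2f2, Hsd17b13 and Pigr of its group together with the lowest Glul, Cyp1a2, Oat, Axin2, Sds and Hal, so in this liver markers of the same zone lay at opposite ends of their group. The ratio of Cyp2e1 to Cyp2f2, the P450 markers of opposite zones, was 8.64, 9.13 and 5.81 in female chow and 9.13, 11.05 and 10.1 in female statin. In male chow it was 8.96, 9.08 and 6.72 and in male statin 8.002, 9.03 and 8.60. The sexes overlapped in this ratio on chow, while on statin every female liver was above every male liver. The lowest female and the highest male value on statin were close, at 9.13 and 9.03. The ratio was not tested, and the share of all genes that separate the sexes on statin was not computed.

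Among the 7641 genes whose mean reached 10 CPM, the level of Glul over the 12 livers was most like that of Slc1a2 (Pearson r = 0.856), a glutamate transporter and itself a marker of the hepatocytes around the central vein. Pak2 (0.787) and Chmp1b (0.783) followed. Cyp2f2 was most like Ephx2 (0.966), Cyp4v3 (0.964) and Scp2 (0.958). These values are descriptions over 12 livers that share 4 groups, and for Cyp2f2 the groups differ by sex.

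Other hepatocyte genes of each zone were then read from fixed lists, also chosen with earlier results of these data known. Of 30 other pericentral genes, edgeR called 0 with statin in females. At an unadjusted p under 0.05, 10 were higher and 2 lower, beside 5.93% higher and 4.56% lower over all genes. The median log2 difference was 0.30, beside 0.01 over all genes. Over the 7 hepatocyte markers tested it was also 0.30, with 5 positive and 2 negative. DESeq2 called 4 of the 30 pericentral genes higher, beside 1.32% of all genes, and limma 0. The lowest p-values were those of Cyp7a1, the rate-limiting enzyme of bile acid synthesis, at 2.45 ± 0.48 (edgeR adjusted p = 0.0951), and Cyp2c54, a P450 enzyme, at 1.70 ± 0.34 (edgeR adjusted p = 0.0968). Cyp7a1 was at 65.0, 44.6 and 57.8 CPM in female chow and at 142, 153 and 621 CPM in female statin, so that the third statin liver was far above the others of its group. Cyp2c54 was at 30.7, 29.8 and 29.2 CPM in female chow and at 71.4, 48.9 and 170.3 CPM in female statin, with the same liver highest. Without single livers the median of the list was between 0.18 and 0.39, and between 5 and 11 genes were higher at an unadjusted p under 0.05. The number higher was 6 without the second female chow liver and 5 without the third female statin liver. The number lower at this level was 0 to 2, with 0 without the first female chow liver. Over all 11968 genes, in either direction, 856, 800 and 958 had such a p in these runs, in the order named. EdgeR called 3 of the 30 higher without the first or without the second female statin liver, and 1 without the third female chow liver. Over all genes edgeR called 62, 75 and 16 in these runs, beside 12 with all livers.

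In males the 30 pericentral genes had a median of -0.04, with 1 gene higher (Gstm3, a glutathione transferase, at 1.04 ± 0.40) and 1 lower (Cyp3a11, a P450 enzyme, at -0.60 ± 0.21) at an unadjusted p under 0.05, beside 0.844% higher and 1.11% lower over all genes (0 to 1 and 1 to 2 without single livers), and 0 called by edgeR, DESeq2 or limma. In the interaction 0 were called by edgeR and 0 by limma, and 3 by DESeq2 (1.02% of all genes). At an unadjusted p under 0.05 edgeR gave 7 higher and 1 lower, beside 4.62% higher and 3.39% lower over all genes. Without the second female statin liver 3 were lower, where 1316 of all 11968 genes, in either direction, were at this level. On chow 6 were called lower in females by edgeR, with Cyp2c54 at -3.34, Cyp7a1 at -1.90, Aldh1a1 at -1.49, Cyp2c50 at -1.47, Cpox at -0.83 and Cyp27a1 at -0.80, and 1 was called higher, Gstm3 at 2.47, beside 4.49% lower and 5.96% higher over all genes. The number called lower was 3 without the second female chow liver or any 1 of the male chow livers, and the number called higher was 2 without the third female statin liver. Aldh1a1 makes retinoic acid, Cpox belongs to heme synthesis and Cyp27a1 to bile acid synthesis.

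Of 28 other periportal genes, edgeR called 0 with statin in females, with 4 higher and 2 lower at an unadjusted p under 0.05, beside 5.93% and 4.56% of all genes, and a median of -0.03. EdgeR called 1 higher without the second female statin liver, where it called 75 of all 11968 genes. The number lower at an unadjusted p under 0.05 was 5 without the second female chow liver and 4 without the second female statin liver. It was 1 without the third female chow or the third female statin liver. Over all genes, in either direction, 856, 1845, 1140 and 800 had such a p in these runs, in the order named. Of the 28 genes DESeq2 called 2 higher and 1 lower, beside 1.32% and 0.936% of all genes, and limma 0. The growth factor gene Igf1 had 0.57 ± 0.13 (edgeR adjusted p = 0.129) and Agxt, which detoxifies glyoxylate, 0.57 ± 0.16 (edgeR adjusted p = 0.202). In males 0 were called by edgeR or limma and 1 was lower by DESeq2, beside 0.0167% of all genes. At an unadjusted p under 0.05 edgeR gave 2 lower, the apolipoprotein gene Apoa4 at -1.05 ± 0.24 and Agxt at -0.38 ± 0.16, beside 1.11% lower and 0.844% higher over all genes, and the median was 0.10. At this level 3 were higher without the second female chow or the third male chow liver, and 2 without the third male statin liver. Without the third female chow or the first male statin liver 1 was higher. Without the first male chow, the second male statin or the third male statin liver 1 was lower. Over all 11968 genes, in either direction, 703 were at this level without the first male statin liver. In the other runs named here 127 to 233 were, beside 234 with all livers. In the interaction edgeR and limma called 0 and DESeq2 called 3 (1.02% of all genes), with 3 higher and 3 lower at an unadjusted p under 0.05 in edgeR, beside 4.62% and 3.39% of all genes, Apoa4 first at 1.79 ± 0.34. EdgeR called 1 higher without the second female statin liver, where it called 14 of all 11968 genes. The number lower at an unadjusted p under 0.05 was 7 without the second female chow liver. It was 6 without the second female statin or the third male chow liver. Over all genes, in either direction, 704, 1316 and 746 had such a p in these runs, in the order named. On chow 2 of the 28 were called higher in females, Cyp17a1 at 2.45 and Ctsc at 0.72. Called lower were 4, Serpina1c at -0.99, Agxt at -0.77, Ftcd at -0.75 and Igf1 at -0.74. The median was 0.23, and over all genes 5.96% were called higher and 4.49% lower. The number called higher was 5 without the second female chow liver, where edgeR called 677 genes in all, beside 1250 with all livers.

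**Figure D4:**
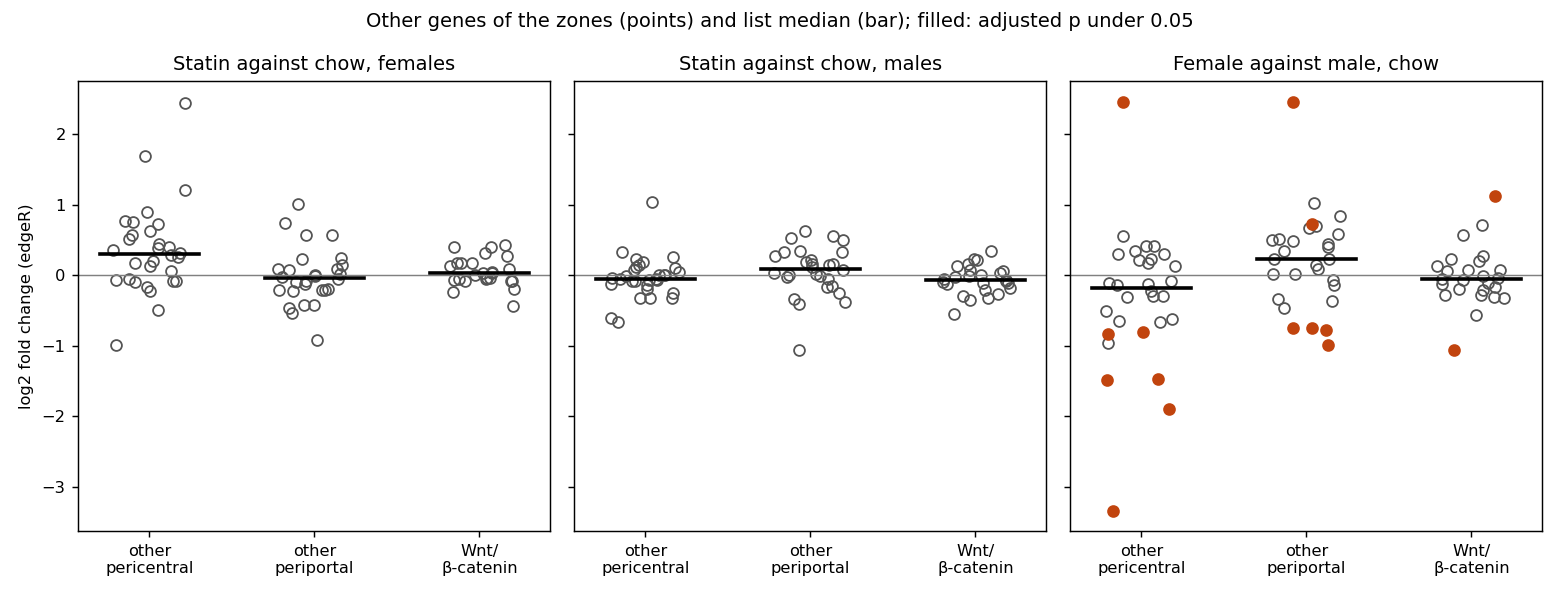
Log2 fold change (edgeR) of each tested gene among 30 other pericentral genes, 28 other periportal genes and 25 genes of Wnt/β-catenin signaling (points), with the median of each list as a bar, in 3 comparisons; filled points have an adjusted p under 0.05. Filled points appear in the comparison of the sexes only, and Cyp2c54 at -3.34 is the lowest.

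Of 31 genes of Wnt/β-catenin signaling, 25 besides Axin2 were tested. With statin 0 of 25 were called by edgeR, DESeq2 or limma in either sex, and 0 had an unadjusted p under 0.05 in edgeR, beside 10.5% of all genes in females and 1.96% in males. At this level 5 were lower in males without the first male statin liver, and 2 were higher in females without the third female chow or the first female statin liver. Over all 11968 genes, in either direction, 703 were at this level in males without the first male statin liver, beside 234 with all livers. In females 1140 were at this level without the third female chow and 1674 without the first female statin liver, beside 1256. The lowest p in females was that of the Wnt receptor Fzd4, at 0.40 ± 0.21 (edgeR adjusted p = 0.568), followed by the transcription factor Tcf7l2 at 0.28 ± 0.17. In males Fzd8 had -0.55 ± 0.27 and Tcf7 0.34 ± 0.21. The R-spondin receptor gene Lgr5, a target of the pathway, averaged 5.76 ± 1.08 and 7.64 ± 0.729 CPM in females without and with statin, and 7.14 ± 1.29 and 6.89 ± 2.53 CPM in males (SD, n = 3). The endothelial ligand gene Wnt2 was at 3.47 ± 0.457, 3.91 ± 1.53, 4.23 ± 1.30 and 3.87 ± 0.245 CPM in the same order, and Wnt9b did not reach the filter in enough livers, with 0.641 to 1.66 CPM. In the interaction 0 were called by edgeR, DESeq2 or limma, and 2 were higher at an unadjusted p under 0.05 in edgeR, beside 4.62% of all genes and 0 to 5 without single livers, Fzd8 at 0.98 ± 0.38 and Fzd4 at 0.69 ± 0.30. On chow edgeR called 1 higher in females, the secreted inhibitor gene Dkk3 at 1.13, and 1 lower, Fzd8 at -1.06, beside 5.96% and 4.49% of all genes, and without single livers these counts ranged from 1 to 3 and from 0 to 2.

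Of the aryl hydrocarbon receptor and its targets, 8 genes besides Cyp1a2 were tested. EdgeR, DESeq2 and limma called 0 of them with statin in either sex and in the interaction. Without the first female statin liver edgeR called 1 of them lower in females, and 62 of all 11968 genes. In females 1 was higher and 2 lower at an unadjusted p under 0.05 in edgeR, beside 5.93% and 4.56% of all genes, and without single livers these counts ranged from 0 to 2 and from 1 to 2, with 2 higher without the first and 0 without the third female statin liver. The lowest p-values were those of the ADP-ribosyltransferase gene Tiparp at -0.84 ± 0.25 (edgeR adjusted p = 0.219) and the receptor gene Ahr at 0.72 ± 0.24 (edgeR adjusted p = 0.295). Ahr, which is also on the pericentral list, was at 27.9 ± 1.62 CPM in female chow and at 46.1 ± 13.9 CPM in female statin, beside 42.9 ± 4.92 and 41.0 ± 14.2 CPM in males (SD, n = 3). Cyp1a1 was below 2 CPM on average in each group and had 0.80 ± 0.57 in males. On chow 1 of the 8 was called higher in females, Tiparp at 1.5, beside 5.96% of all genes.

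Of the enzymes of histidine, serine and ornithine breakdown, 11 besides the members were tested, and edgeR, DESeq2 and limma called 0 with statin in either sex and in the interaction. Glud1, glutamate dehydrogenase, was the only one at an unadjusted p under 0.05 in females, at 0.31 ± 0.14, beside 10.5% of all genes and 0 to 1 without single livers, and in males Ftcd had -0.25 ± 0.13. On chow edgeR called 0 higher and 2 lower in females, the histidine pathway gene Ftcd, also on the periportal list, at -0.75 and the serine racemase gene Srr at -0.49, whereas Sds of the same list was higher. Over all genes 4.49% were called lower and 5.96% higher. The number called lower was 1 when any 1 of the chow livers but the third female one was left out. Of 9 genes of endothelial zones that were tested, 0 were called with statin by edgeR, DESeq2 or limma. Kit, a receptor gene of endothelium near the central vein, had 0.79 ± 0.24 in females (edgeR adjusted p = 0.243), and Thbd, thrombomodulin, 0.58 ± 0.26 in males. On chow edgeR called 0 of these genes. It called 1 without the first female chow or the second female statin liver, beside 727 and 1586 of all 11968 genes. DESeq2 called 1 (16.3% of all genes). At an unadjusted p under 0.05, 3 were higher in females, beside 13.3% of all genes, with Msr1 at 0.57 ± 0.17 (edgeR adjusted p = 0.0558). This number was 1 without the first female chow or the first male chow liver.

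Of the cell type markers edgeR and limma called 0 with statin in either sex, and DESeq2 called 1 stellate and fibroblast marker higher in females, beside 1.32% of all genes. Of the 8 stellate and fibroblast markers 1 had a positive difference in females, Rgs5 of mural cells at 0.57 ± 0.15 (edgeR adjusted p = 0.177), and 7 a negative one, with a median of -0.41. Of these Des, at -0.48, had an unadjusted p under 0.05, beside 4.56% lower over all genes, and 5 did without the second female statin liver. Without that liver 1845 of 11968 genes, in either direction, had such a p, beside 1256 with all livers. All 8 Kupffer cell markers had a positive difference in females, with a median of 0.11. In males 1 of them was positive and 7 were negative, and 0 had an unadjusted p under 0.05 in either sex. In females 4 of 39 marker genes of all cell types were at an unadjusted p under 0.05, beside 10.5% of all genes. Among them were Rgs5, Des and Apoa1 at 0.46 ± 0.18. The summed hepatocyte markers were between 98916 and 129023 CPM in female chow and between 118976 and 153883 CPM in female statin, and Alb alone made up 5.71% to 12.7% of a library. Library sizes computed without the 10 highest genes changed no call among the 10 zonation markers.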

How the data were processed

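Poly(A) RNA of 12 livers was sequenced from both ends, and per the labels' processing notes the authors used STAR 2.4.1a, HTSeq and edgeR 3.28.1 with the mouse genome GRCm38. The authors deposited CPM values (each count scaled to the total of its liver) for 48526 genes, and counts for 11968 genes that exceeded 1 CPM in 6 or more livers. The table of counts was described as TMM-normalized. It was used as raw counts, because each entry was whole and 0 entries deviated from reads rebuilt from CPM (100% whole within 0.01 reads).

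The counts were fitted with edgeR 4.0.16 (quasi-likelihood test, TMM, common dispersion 0.0380, prior degrees of freedom 4.14), with 4 group means and no covariate, two-sided, with Benjamini-Hochberg adjustment over 11968 genes and a threshold of 0.05. The SE was taken as |log2 fold change| over the root of F. Levels are TMM-normalized CPM, and the zone means use log2 with a pseudocount of 1. The 3 livers of a group are different mice, and no pair of livers in a group was a repeat of one library (chi-square over degrees of freedom at least 44.5). The replicate numbers were not taken to pair the mice.

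The members and the lists were chosen with earlier results of these data known. Of other lists, genes past an adjusted p of 0.05 are named, or else those with the 2 smallest p-values in a comparison. Not every gene named by this rule is reported here. Genes with levels given for context (Lgr5, Wnt2, Wnt9b) were named after their values were seen. Tf and Ahsp had no row by that symbol. Positions are from GENCODE vM21, which is another release than the authors used. Alternatives were DESeq2 1.42.0, limma 3.58.1, other scalings and filters, a length offset, a replicate block and leaving out single livers. The count of each list and the zone difference under these settings were added after seeing the data. The methods were tested on simulated counts. Computations used R 4.3.3 and Python 3.11.15 with matplotlib 3.10.9, numpy 2.4.6 and pandas 2.3.3.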

Additional observations from a re-analysis of the deposited data

How the results depend on the processing

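The number of zonation markers called stayed within 1.5 times the reported number under all alternatives except DESeq2 in females, which called 1 (Cyp2e1). Values near 0 changed sign. For Cyp1a2 with statin in males limma gave -0.051 and the replicate block -0.077, and for Glul in the interaction they gave 0.015 and 0.014. For Oat in the interaction library size alone gave -0.013 and the length offset -0.022, and for Hal in the comparison of the sexes a minimum mean of 10 CPM gave 0.022. Leaving out each liver in turn, the log2 difference with statin in females ranged from -0.29 to 0.17 for Hal. In males it ranged from -0.28 to 0.022 for Cyp2e1, from -0.34 to 0.19 for Cyp1a2, from -0.10 to 0.26 for Axin2 and from -0.49 to 0.021 for Pigr. In the interaction it ranged from -0.13 to 0.18 for Glul, from -0.19 to 0.16 for Oat and from -0.44 to 0.025 for Hal, and between the sexes from -0.13 to 0.19 for Glul and from -0.35 to 0.12 for Hal. The cause of these changes was not tested.

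Over all 11968 genes in females edgeR called 12, DESeq2 270, edgeR on 1 sex alone 0 and edgeR with a minimum mean of 10 CPM 5, and edgeR without a filter called 148 of 26304 genes. In males these were 0 in edgeR and 4 in DESeq2, and in the interaction 0 in edgeR, 122 in DESeq2 and 103 without a filter. Between the sexes edgeR called 1250, DESeq2 1946, edgeR on the chow livers alone 2151 and edgeR with a minimum mean of 10 CPM 771. Without single livers the counts ranged from 0 to 75 in females, from 0 to 14 in the interaction and from 635 to 1586 between the sexes.

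Deviations from the group means of same-numbered livers of chow and statin had correlations of -0.541, -0.495 and 0.152 in females. In males these were -0.565, 0.0726 and -0.541. With 3 livers a group these values cannot decide whether equal numbers mark paired mice, and the main fit treats the livers as unpaired. With the replicate number as a block, edgeR called 5 genes in females, and of the zonation markers 0 with statin in either sex and 2 between the sexes, where Sds had 1.1 with an adjusted p of 0.0669. The level of Hal in female statin was 389 CPM with library size alone, in place of 403 CPM. The zone difference moved by less than its SD under both other scalings. With 3 livers a group, a difference of the size seen for Cyp2e1 in females can fall on either side of the threshold with the choice of test.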
